A study of Mus musculus with 3 samples.

Results

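The neuregulins and the ErbB receptors were read in single cells of the mouse nucleus accumbens, cell class by cell class. The group holds 7 genes chosen by symbol out of 28001 features in the count table: the ligands Nrg1, Nrg2 and Nrg3, the receptors Erbb2, Erbb3 and Erbb4, and Egfr. All 7 symbols were found once each. The cells came from Thy1::ChR2 mice, whose transgene puts the light-gated channel ChR2 under the neuronal Thy1 promoter. FLiCRE, a recorder that switches on a reporter in active cells while they are lit, was applied during ChR2 stimulation in the accumbens, and the tissue was cut as a coronal piece of 400 um. There were 3 samples of this single group, so every comparison below is between cell classes inside the same libraries, and no unstimulated or unlabelled group was compared. The labels do not give the age or sex of the mice or the number of animals behind a sample, so p-values measure only the spread between these 3 libraries.

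Neuregulins are EGF-like signals made as membrane precursors and freed by proteases. They bind ErbB3 and ErbB4, which then pair with each other or with ErbB2, a partner that binds no known ligand of its own; EGFR is the receptor for EGF, TGF-alpha and related ligands. In the forebrain ErbB4 is known from inhibitory interneurons and ErbB3 from the oligodendrocyte lineage.

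The 3 libraries are told apart by the suffix of the cell barcode, and nothing ties a suffix to a numbered sample of the labels. They held 2306, 5783 and 1834 cells after filtering, with medians of 985.5, 2084 and 2674 UMIs (unique molecular tags, 1 per captured RNA molecule) per cell. Library 1 was the shallowest. The libraries shared 13, 7 and 22 barcode sequences in pairs. Cells were placed in classes by the number of marker genes detected, and each class name below means cells that are like that type by those markers. A total of 13 classes, from 47 Pvalb interneuron-like to 1681 D1-like cells, entered the fits. The gates were set after the data had been seen, and 74.8% of the Tshz1-type cells were within 1 marker of the cut, against 2.02% of oligodendrocyte-like cells. Adora2a, Penk and other D2 markers were read, but Drd2 itself is nearly absent from the table, so the D2-like class rests on the other genes.

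The members are sparse transcripts. In the used cells Erbb4 had 870 UMIs in 644 cells, Egfr 309 UMIs in 259 cells, Nrg2 274, Nrg3 216, Erbb3 193, Nrg1 172 and Erbb2 75 UMIs. Levels are given as CPM, the gene's UMIs per 1000000 UMIs of the class in each library. Only Erbb4 and Egfr passed the filter on low counts of the fit over all 13 classes, so 2 of 7 members were tested there. The other 5 were read in the same fit without the filter, which is named where it is used.

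Erbb4 (ENSMUSG00000062209) spans 1076 kb on the minus strand at chr1:68032186-69108059, and Egfr (ENSMUSG00000020122) 166 kb on the plus strand at chr11:16752203-16918158 (GENCODE M21, GRCm38, the build the labels call mm10). Erbb3 (ENSMUSG00000018166) spans 22.1 kb at chr10:128567523-128589652 on the minus strand, and Erbb2 (ENSMUSG00000062312) 25.2 kb at chr11:98412470-98437716 on the plus strand. Egfr overlaps the antisense gene Egfros, Erbb2 overlaps Mien1 on the other strand, and Erbb4 contains 8 small annotated genes on its own strand. The strand setting of the counting is not given in the sources used here, and whether reads of such partners entered the members' counts was not tested. The upstream sequences of Erbb4 and Egfr are shown because both genes reached their highest level in the same cell class. Each is the 250 bases before the annotated start, from RefSeq (GRCm38.p6), with capitals for GGGCGG or its reverse complement CCGCCC, searched on both strands.
Erbb4, chr1:69108060-69108309, minus strand: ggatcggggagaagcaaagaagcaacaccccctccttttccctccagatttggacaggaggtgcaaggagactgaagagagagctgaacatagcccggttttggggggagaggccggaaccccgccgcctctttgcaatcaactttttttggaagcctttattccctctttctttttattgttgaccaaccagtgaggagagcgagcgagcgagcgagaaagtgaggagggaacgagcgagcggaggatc
Egfr, chr11:16751953-16752202, plus strand: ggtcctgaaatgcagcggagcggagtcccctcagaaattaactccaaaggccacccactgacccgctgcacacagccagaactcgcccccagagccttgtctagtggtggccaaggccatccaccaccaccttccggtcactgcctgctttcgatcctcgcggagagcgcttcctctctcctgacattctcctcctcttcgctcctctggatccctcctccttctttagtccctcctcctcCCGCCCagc
The Egfr window holds the motif once and the Erbb4 window does not hold these letters; 32.7% of the 32851 promoters in the RefSeq table do. The windows have 12 and 11 CpG pairs, against a median of 6 over the table, and neither holds TATAAA or TTTATA, which 12.4% of promoters do. Windows were read for 4 of the 7 members. Nrg2 was left out of this reading, and Nrg1 and Erbb3 had no entry in the RefSeq table. The windows of Erbb2 and Nrg3 hold no capitalised motif.

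Erbb4 was highest in Pvalb interneuron-like cells, the fast-spiking inhibitory class. It reached 729, 471 and 452 CPM there in libraries 1 to 3, a mean of 551 ± 155 CPM (SD, n = 3 libraries). Library 1 rested on 16 UMIs in 10 cells and library 3 on 27 UMIs in 10 cells, and the lowest of the 3 values was above that of all 12 other classes in any library. A UMI of Erbb4 was found in 36 of the 47 cells. Pooled over libraries the level was 14.8-fold that of D1-like and D2-like cells together and 3.12-fold that of Tshz1-type cells.

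Tshz1-type neurons, gated by Tshz1, Pcdh8, Otof and related genes with no spiny marker required, came second by mean. Their spiny markers summed to a mean of 5131 CPM, against 6446 CPM in D1-like cells. Their D2 markers summed to 2185 against 687 CPM, and general interneuron markers to 1859 against 1424 CPM. Erbb4 stood at 150, 133 and 196 CPM, or 160 ± 32.9 CPM (SD, n = 3 libraries). These values did not overlap those of Pvalb interneuron-like or D1-like cells. In library 1 oligodendrocyte precursor-like cells, with 155 CPM from 3 UMIs, were slightly above it. The library 1 value came from 2 UMIs in 1 of 15 cells; libraries 2 and 3 gave 66 and 68 UMIs. Pooled, the level was 3.60-fold that of D1-like cells. Because Erbb4 was singled out for these neurons and for interneurons when the genes were chosen, both levels are given as descriptions, with no test. The Tshz1-type mean was 107.9 CPM under the first version of the gates, 112.4 CPM with 1 more marker required, and 199.9 CPM in cells of at least 1000 UMIs.

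The classes next in order could not be separated by their spread. Oligodendrocyte precursor-like cells had a mean of 66.9 ± 77.5 CPM, from 8 UMIs in all, and Sst-Npy interneuron-like cells 57.0 ± 61.3 CPM (SD, n = 3 libraries), with 0, 122 and 49.2 CPM in libraries 1 to 3. D1-like cells followed with 33.1 ± 18 CPM, oligodendrocyte-like cells with 20.7 ± 9.17 CPM and D2-like cells with 12.9 ± 11.6 CPM. Astrocyte-like cells held 7 UMIs in 835 cells (3.17 ± 1.32 CPM), and mural-like cells held 0 UMIs in 291 cells, which allows a pooled level of up to 7.79 CPM.

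**Figure D1:**
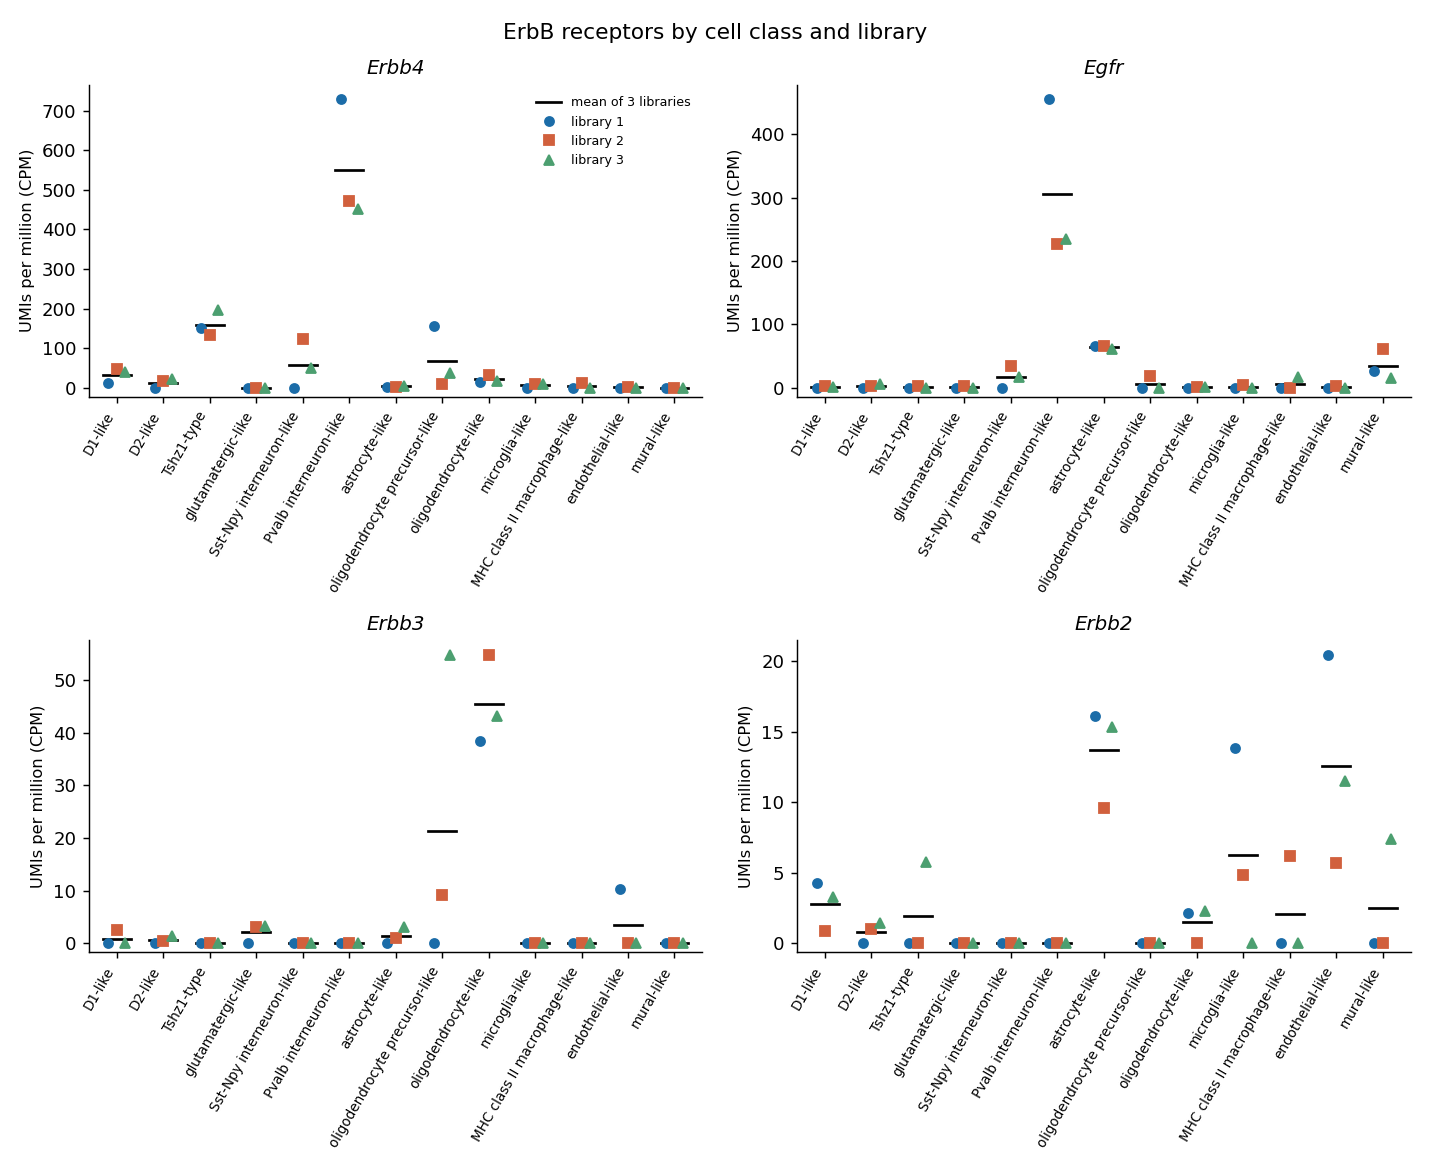
Level of each ErbB receptor in CPM (linear axis, each panel with its own scale) for 13 cell classes. Points are the 3 libraries and black lines their means. Erbb4 and Egfr were highest in Pvalb interneuron-like cells in all 3 libraries, Erbb3 in oligodendrocyte-like cells in 2 of 3, and the Erbb2 mean in astrocyte-like cells.

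Within spiny neurons, the projection cells of the accumbens, the question was whether the D1-like and D2-like classes differ in ligand or receptor. Erbb4 was 12.8, 47.2 and 39.3 CPM for D1-like cells of libraries 1 to 3, against 0, 16.1 and 22.5 CPM for D2-like cells. D1-like cells were higher within each library, but the ranges overlapped across libraries. The log2 fold change was 1.27 (SE 0.39), which did not pass over all genes in the fit of 13 classes (edgeR adjusted p 0.285). Neither of the 2 tested members passed, against a background of 0.357% of 8692 genes called; 1 of them, Erbb4, had an unadjusted p under 0.05, and DESeq2, which called 0.207% of genes, called 0 members. In a fit of these 2 classes alone, where 3.53% of 9225 genes were called, Erbb4 passed at 1.35 (SE 0.23; adjusted p 2.28e-07 by edgeR). The cause of this change in the call was not tested. Without the low-count filter the adjusted p was 0.0526 (edgeR), and the sign was the same under all alternatives that tested the gene.

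The ligands did not pass between D1-like and D2-like cells in the unfiltered edgeR fit, where 0.338% of 18320 genes were called. Nrg1 was 12 ± 4.79 against 11.3 ± 4.82 CPM and Nrg2 16.9 ± 7.30 against 19.4 ± 2.41 CPM (SD, n = 3 libraries). Nrg3 was 13.0 ± 1.17 against 8.86 ± 2.16 CPM, with ranges that did not overlap (log2 fold change 0.35, SE 0.45, edgeR adjusted p 1). Between Tshz1-type and D1-like neurons, Egfr, the 1 member tested with the filter, did not pass with edgeR or with DESeq2, nor at an unadjusted p under 0.05; 1% of 8692 genes were called there by edgeR and 0.564% by DESeq2. Egfr had 1 UMI in all 330 Tshz1-type cells.

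The 2 interneuron classes differed in both receptors. Erbb4 in Pvalb over Sst-Npy interneuron-like cells had a log2 fold change of 2.60 (SE 0.48; adjusted p 0.000189 by edgeR), higher in 3 of 3 libraries with ranges that did not overlap. Egfr, which mediates EGF and TGF-alpha signals, was 456, 227 and 234 CPM in Pvalb interneuron-like cells and 0, 34.8 and 16.4 CPM in Sst-Npy interneuron-like cells. Every Pvalb value was thus above every Sst-Npy value. The log2 fold change was 3.30 (SE 0.63; adjusted p 0.00025 by edgeR). Both tested members passed where 1.45% of 8692 genes were called, and both also passed with DESeq2 (2.78 and 3.40, adjusted p 0.00928 for each), which called 0.61% of genes. The Sst-Npy counts were small: 17 Erbb4 and 5 Egfr UMIs in 51 cells, and 4 of the 5 Egfr UMIs were in 1 cell. This class had 9 cells in library 1, and with a minimum of 10 cells per library the comparison has no value.

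Both receptors were common among Pvalb interneuron-like cells, and whether they were associated within cells was not tested. Of 47 Pvalb interneuron-like cells, 24 held a UMI of both, 36 of Erbb4, 29 of Egfr and 6 of neither. Pvalb interneuron-like cells also had a high median depth of 3743 UMIs, against 2457 in D1-like and 2763 in Sst-Npy interneuron-like cells. After each cell was thinned to 1000 UMIs, which left out 0 Pvalb and 3 Sst-Npy interneuron-like cells, Erbb4 remained in 41.5% ± 10.3 and 7.63% ± 6.77 of cells (80.1% ± 9.82 and 17.1% ± 15.8 before thinning; SD, n = 3 libraries). Egfr remained in 31.6% ± 24.7 of Pvalb interneuron-like cells (61.0% ± 10.1 before). Thinned shares were 19.9% ± 5.98 for Erbb4 in Tshz1-type, 2.99% ± 1.91 in D1-like, 0.634% ± 0.664 in astrocyte-like (median 2058 UMIs) and 0% in glutamatergic-like cells. Pvalb interneuron-like and Tshz1-type cells thus stayed the first and second class at equal depth.

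**Figure D2:**
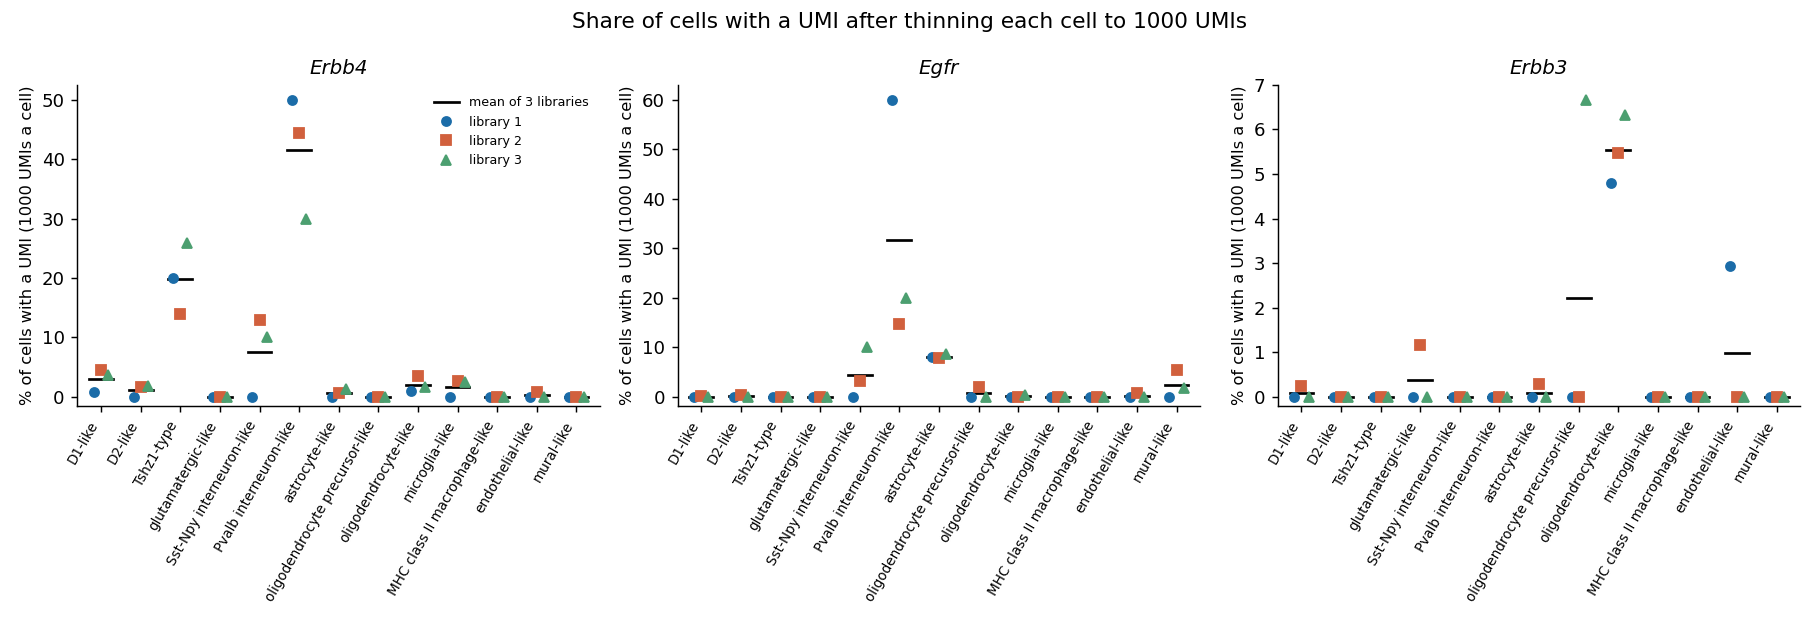
Share of cells, in percent, with at least 1 UMI of Erbb4, Egfr or Erbb3 after each cell was thinned to 1000 UMIs; shallower cells were left out. Points are the 3 libraries, black lines their means. Erbb4 was at 41.5% on average in Pvalb interneuron-like and 19.9% in Tshz1-type cells.

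Against the spiny classes, the mean of both interneuron classes was higher for Egfr in 3 of 3 libraries (161 ± 57.6 against 1.98 ± 1.76 CPM, SD, n = 3 libraries). On the log2 scale the fitted fold change was 4.65 (SE 0.70; adjusted p 5.21e-08 by edgeR), where 20.4% of 8692 genes were called; without library 2 it was 4.30 and no longer passed (edgeR adjusted p 0.0558). Spiny neurons held 20 Egfr UMIs in all. Nrg2 had 2 UMIs in both interneuron classes and 157 in the spiny classes, and did not pass without the filter, where 11.5% of 18320 genes were called (log2 fold change -2.22, SE 0.84, edgeR adjusted p 0.0626). Both interneuron UMIs were in library 1, and the CPM means did not follow the fitted sign: 20.1 ± 34.8 CPM in interneurons against 18.2 ± 4.85 CPM in spiny neurons (SD, n = 3 libraries), with interneurons higher in 1 of 3 libraries. Without the filter and without library 1 the gene was called lower (adjusted p 0.00538, edgeR), but against interneuron classes that then held 0 UMIs, so no fold is given. Nrg1 had 1 UMI in the 98 interneuron-like cells and 69 in the spiny classes. Pvalb and Sst-Npy interneuron-like cells held 196262 and 189179 UMIs of all genes, against 7773896 in spiny neurons. The raw Nrg1 and Nrg2 counts are thus not directly comparable. For Nrg1 in Pvalb interneuron-like cells the exact Poisson 95% interval reached 28.4 CPM, above the pooled 9.01 CPM of D1-like and 8.67 CPM of D2-like cells. The gene did not pass without the filter (log2 fold change -3.10, SE 1.55, edgeR adjusted p 0.221). Astrocyte markers were present in Pvalb interneuron-like cells at 184 to 364 CPM summed over the 8 listed genes (6 with a UMI), against 6049 to 6871 CPM in astrocyte-like cells, and at 49.2 to 174 CPM in Sst-Npy interneuron-like cells. Egfr itself was 3.93-fold higher, pooled, in Pvalb interneuron-like than in astrocyte-like cells.

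Glutamatergic-like neurons, which carry Slc17a7, Neurod6 and related markers, lacked detectable Erbb4. They held 0 Erbb4 UMIs in 194 cells of 740897 UMIs, which allows up to 4.05 CPM. Erbb4 was at least 10.9-fold lower there than in D1-like cells and at least 4.03-fold lower than in D2-like cells (floor of 3 counts over the class, pooled libraries). The fit against the mean of both spiny classes called it lower (edgeR adjusted p 7.18e-05), with 14.1% of 8692 genes called; Egfr, with 1 UMI in this class, did not pass. Under the first version of the gates Erbb4 did not pass the low-count filter and the comparison called 0 members.

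Nrg3, the neuregulin largely restricted to the nervous system, had its highest mean in glutamatergic-like neurons. It was 36.3, 37.6 and 32.1 CPM there and 12.8, 11.9 and 14.2 CPM in D1-like cells, so the groups did not overlap. In library 1 alone a single UMI put Pvalb interneuron-like cells above it, at 45.6 CPM. The mean over the class was 35.3 ± 2.88 CPM against 10.9 ± 0.555 CPM for the mean of the spiny classes (SD, n = 3 libraries), with 26 and 89 UMIs. Without the filter the log2 fold change was 1.62 (SE 0.45; adjusted p 0.00516 by edgeR), where 8.16% of 18320 genes were called. Without the filter and without library 2 or library 3 it was 1.60 and 1.63 and did not pass (edgeR adjusted p 0.2 and 0.115).

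Across neurons and glia, Nrg3 was 15.4 ± 1.78 CPM in the mean of 6 neuron classes and 0.822 ± 0.659 CPM in the mean of astrocyte-, oligodendrocyte- and precursor-like cells (SD, n = 3 libraries). Without the filter the log2 fold change was 3.46 (SE 0.84; adjusted p 0.00022 by edgeR), higher in 3 of 3 libraries, where 32.7% of genes were called. Without library 2, and without the filter, it was 2.97 (edgeR adjusted p 1). Oligodendrocyte precursor-like cells held 0 Nrg3 UMIs, which allows up to 12.6 CPM, and oligodendrocyte-like cells held 2. Nrg2 was 15.9 ± 7.36 CPM in neurons and 4.76 ± 1.86 CPM in glia, in ranges that did not overlap, but did not pass (log2 fold change 0.63, SE 0.60, edgeR adjusted p 0.58). In library 1 the neuron mean leaned on 74.9 CPM in Sst-Npy and 45.6 CPM in Pvalb interneuron-like cells, from 1 UMI each. Nrg2 was at 20.1 CPM pooled for D1-like and 20.3 CPM for D2-like cells, which together held 57.3% of its UMIs. Egfr did not pass between neurons and glia with edgeR (adjusted p 0.287, and above 0.05 unadjusted) or DESeq2, where 61% of 8692 genes were called by edgeR and 62.9% by DESeq2. Its CPM mean was higher in neurons (54.7 ± 18.4 against 23.9 ± 4.09), while the fitted log2 fold change was -0.75 (SE 0.60), which averages log levels over classes; 5 of the 6 neuron classes had a mean of at most 17.1 CPM.

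**Figure D3:**
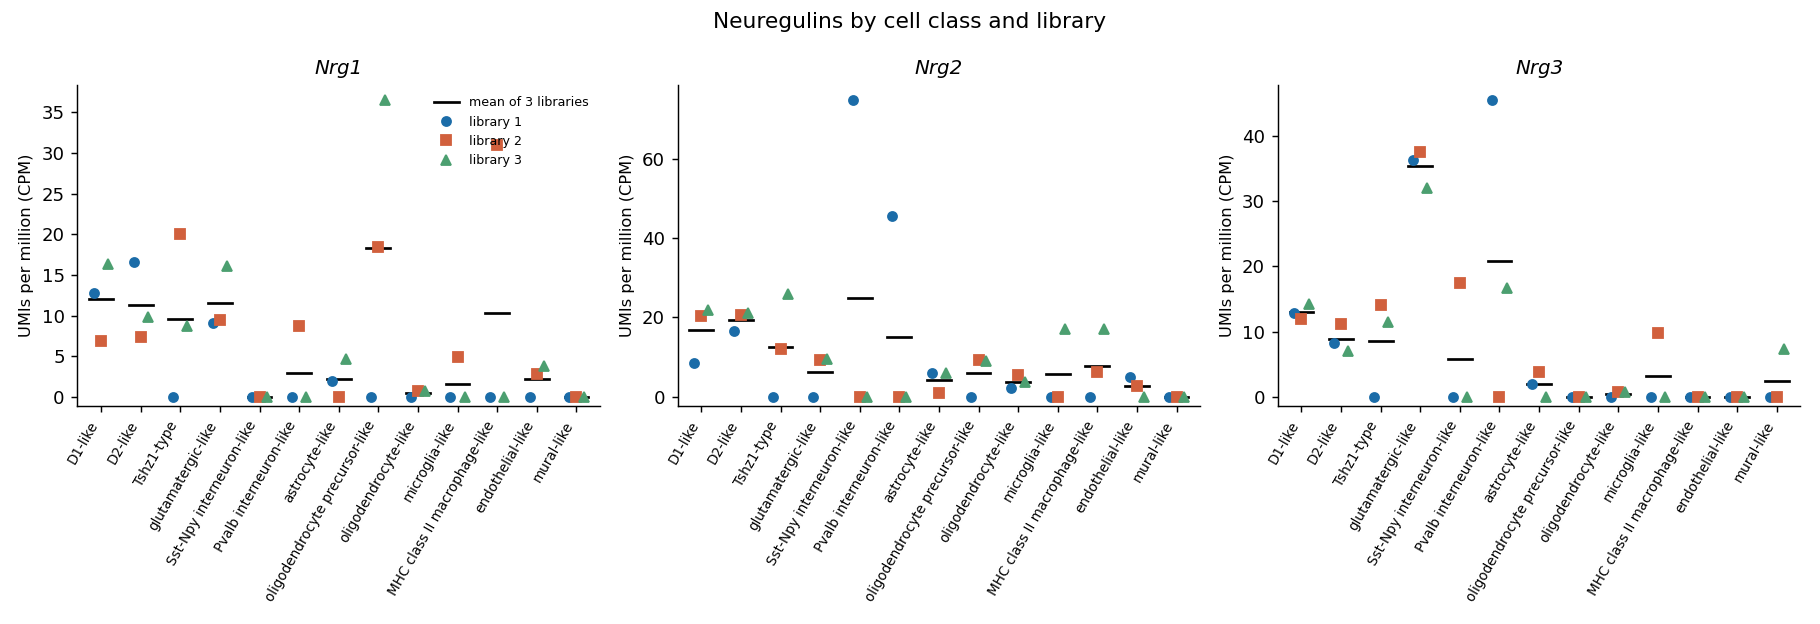
Level of each neuregulin in CPM (linear axis, each panel with its own scale) for 13 cell classes. Points are the 3 libraries and black lines their means. Nrg3 in glutamatergic-like neurons lay between 32.1 and 37.6 CPM; the Nrg2 value of 74.9 CPM in Sst-Npy interneuron-like cells is 1 UMI in library 1.

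Nrg1, the founding neuregulin, was low in every class. Its mean lay at 12 ± 4.79 CPM in D1-like, 11.3 ± 4.82 in D2-like, 11.5 ± 3.93 in glutamatergic-like and 9.58 ± 10.1 CPM in Tshz1-type cells (SD, n = 3 libraries), which do not differ beyond their spread. The highest mean, 18.3 ± 18.3 CPM in oligodendrocyte precursor-like cells, came from 6 UMIs in 4 cells, none of them in library 1. Precursor-like cells were called higher than oligodendrocyte-like cells, which held 2 Nrg1 UMIs, without the filter (log2 fold change 4.12, SE 1.15, edgeR adjusted p 0.00451). In that fit 11.9% of 18320 genes were called. The call was lost when library 3 was left out (3.52, adjusted p 0.389) or library 2 was (4.26, adjusted p 0.0502, both edgeR). In MHC class II macrophage-like cells Nrg1 had 5 UMIs, all in library 2.

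Erbb3, the neuregulin receptor of myelinating glia, was concentrated in oligodendrocyte-like cells. It was 38.5, 54.7 and 43.2 CPM there, or 45.5 ± 8.38 CPM (SD, n = 3 libraries), and the class held 75.1% of all Erbb3 UMIs with 13.0% of all UMIs. D1-like and D2-like neurons held 11 Erbb3 UMIs together, and both interneuron classes and the Tshz1-type class held 0. Pooled, the level in oligodendrocyte-like cells was 33.4-fold that of D1-like and D2-like cells. The share of cells with a UMI after thinning was 5.53% ± 0.775 in oligodendrocyte-like cells (10.4% ± 5.72 before; median 1847 UMIs) and 0.0824% ± 0.143 in D1-like cells. Erbb3 was singled out for this lineage when the genes were chosen, so the lineage difference is a description.

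Within the lineage the order was not resolved. Erbb3 in oligodendrocyte precursor-like cells was 0, 9.21 and 54.8 CPM, from 7 UMIs, so that library 3 was above and libraries 1 and 2 were below their oligodendrocyte-like counterparts. The log2 fold change of precursors over oligodendrocytes was -1.44 (SE 0.58) without the filter and did not pass (edgeR adjusted p 0.09). Erbb4 was present in oligodendrocyte-like cells too, at 15, 31.3 and 15.9 CPM, with 15 of 1287 cells holding both receptors, 130 with Erbb3 and 64 with Erbb4. Of the 2 members tested with the filter, neither passed between precursors and oligodendrocytes, where 22.5% of 8692 genes were called; 0 had an unadjusted p under 0.05 with edgeR, and DESeq2, which called 21.9% of genes, called 0 members.

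Between oligodendrocyte precursor- and astrocyte-like cells both tested members passed, in opposite directions, where 19.4% of 8692 genes were called. Egfr was 66.3, 66.4 and 61.3 CPM in astrocyte-like cells and 0, 18.4 and 0 CPM in precursor-like cells. The precursor values all lay below the astrocyte values, and the log2 fold change was -3.44 (SE 0.78; adjusted p 0.000364 by edgeR). Erbb4 was 155, 9.21 and 36.5 CPM in precursor-like cells against 2.01, 2.89 and 4.60 CPM in astrocyte-like cells, which also did not overlap. Its log2 fold change was 2.81 (SE 0.89; adjusted p 0.0145 by edgeR), on 8 and 7 UMIs. That call was lost with 1 more marker required (2.52, edgeR adjusted p 0.0522), without library 1 (2.20, 0.123) and without library 3 (2.98, 0.0908). After thinning, which left out 56 of the 139 precursor-like cells and 16 of the 21 in library 1, 0% held Erbb4.

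Egfr in astrocyte-like cells varied little between libraries, at 64.7 ± 2.90 CPM (SD, n = 3 libraries), and the class held 46.0% of all Egfr UMIs. A UMI was found in 16.5% ± 5.46 of these cells, and in 8.12% ± 0.432 after thinning, against 0.0549% ± 0.0951 of D1-like cells. Mural-like cells, the contractile cells of vessels, came next with 26.6, 61.2 and 14.8 CPM. Those values all lay below the astrocyte values, the nearest by little. The mural range overlapped that of Sst-Npy interneuron-like cells.

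Erbb2, the shared partner receptor, had its highest mean of the 13 classes compared in astrocyte-like cells, with 16.1, 9.62 and 15.3 CPM. Endothelial-like cells had 20.5, 5.69 and 11.5 CPM, a range that overlaps it. Fibroblast-like cells, too few for the fits, had a higher mean of 19.1 CPM from 1 UMI in 43 cells. Astrocyte-like cells held 28 of the 75 Erbb2 UMIs and oligodendrocyte-like cells 4, a pooled level 9.81-fold lower. In oligodendrocyte-like cells 2 of the 4 cells with Erbb2 also held Erbb3. Both interneuron classes, glutamatergic-like and precursor-like cells held 0 Erbb2 UMIs, which allows up to 15.9, 15.3, 4.05 and 12.6 CPM in Sst-Npy interneuron-, Pvalb interneuron-, glutamatergic- and precursor-like cells.

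**Figure D4:**
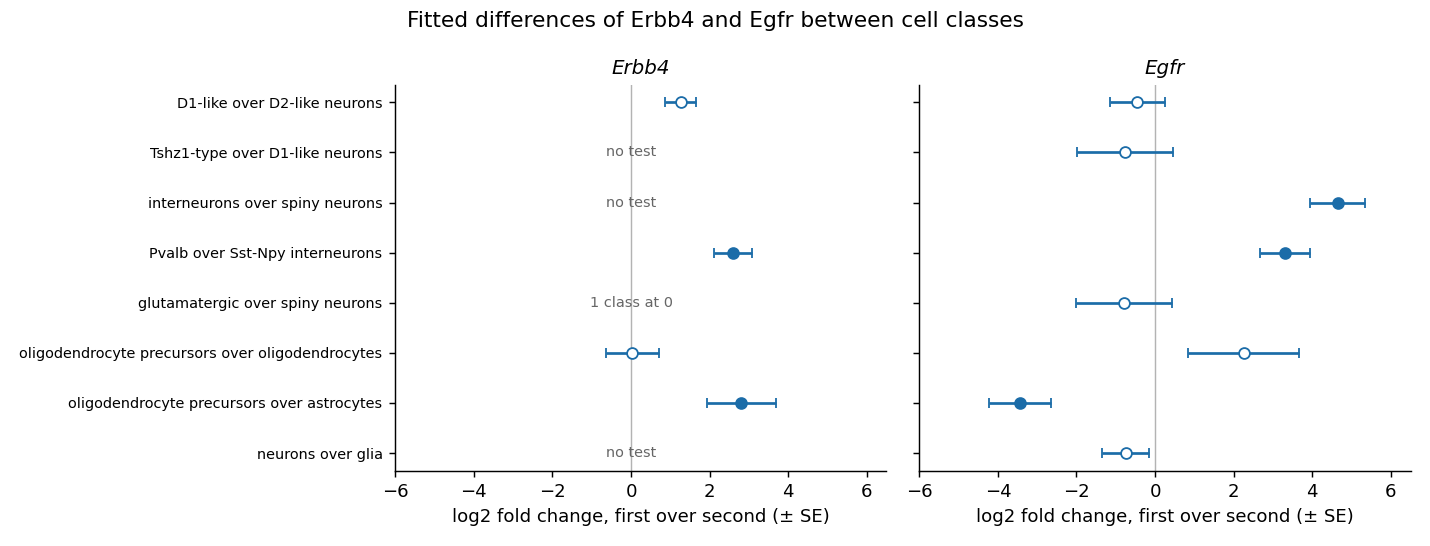
Fitted log2 fold change (± SE) of Erbb4 and Egfr for the first over the second class of each comparison, from the fit of 13 classes; filled points have an adjusted p under 0.05. "No test" marks comparisons given as descriptions, and "1 class at 0" the glutamatergic-like neurons, which held 0 Erbb4 UMIs. Egfr was called in 3 comparisons, with 4.65, 3.30 and -3.44.

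Genes whose class means ran most like a member's, over 13 class means and with no test, were as follows. For Erbb3 they were Myrf (Pearson r 0.99), a transcription factor of myelination, Fam83d (0.96) and Aldh1l2 (0.96). For Nrg3 they were Kcnh7 (0.99), a potassium channel, Gprin1 (0.97) and Kcnj9 (0.96). Egfr ran most like Hapln1 (0.87), a link protein of the extracellular matrix, Adamts5 (0.87) and Pygm (0.87), and Erbb4 like Asun (0.92), Mettl16 (0.90) and Ablim3 (0.90). Nrg2 ran most like Rab27b, Slc25a11 and Nrsn2 (0.92, 0.92 and 0.91), but its highest class mean, in Sst-Npy interneuron-like cells, came from 1 UMI. Its mean in Pvalb interneuron-like cells, below those of D2-like and D1-like cells, also came from 1 UMI. Nrg1 and Erbb2 had no class mean of 20 CPM and were left out. The classes share libraries and differ in depth, which enters these values.

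The other genes of the pathway were read from 4 lists of 46 genes in all: further EGF-family ligands, sheddases, adaptors and kinases, and scaffolds and negative regulators; 29 passed the filter. Between D1-like and D2-like cells 0 of 29 passed with edgeR (2 at an unadjusted p under 0.05) and 0 with DESeq2. Between Tshz1-type and D1-like cells 0 passed (2 at an unadjusted p under 0.05, DESeq2 0), and between Pvalb and Sst-Npy interneuron-like cells 0 (1 at an unadjusted p under 0.05, DESeq2 0).

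In interneurons over spiny neurons 0 rose and 8 fell, where 5.27% of all genes tested rose and 15.1% fell. Tgfa, a ligand of EGFR, fell most, from 117 ± 27.0 CPM in spiny neurons to 8.43 ± 8.29 CPM (SD, n = 3 libraries; log2 fold change -3.78, SE 0.53, edgeR adjusted p 1.02e-08). Ptprz1 (-1.88), a receptor phosphatase, followed. In glutamatergic-like over spiny neurons 4 fell, led by the EGFR ligand Hbegf (-3.70, 43.3 ± 15.4 against 2.09 ± 3.62 CPM, edgeR adjusted p 7.49e-05), Jak2 (-2.56) and Tgfa (-2.44), where 7.56% of all genes tested rose and 6.52% fell. All genes tested had a median of -0.35 in the first of these comparisons and -0.093 in the second.

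In oligodendrocyte precursor- over oligodendrocyte-like cells 2 rose and 5 fell, where 10% of genes rose and 12.5% fell. Ptprz1, a receptor phosphatase of precursors, stood at 2044 ± 394 against 29.7 ± 8.88 CPM (SD, n = 3 libraries; log2 fold change 5.43, edgeR adjusted p 2.36e-26), and the kinase gene Fyn rose by 1.54. Mapk3 (-3.06), Ptpn11 (-3.03) and Errfi1 (-2.67), an inhibitor of EGFR, fell. Over astrocyte-like cells, where 7.47% of genes were higher and 12% lower, Tgfa (1.65) and Fyn (1.17) were higher in precursor-like cells. Lrig1, a negative regulator of ErbB receptors, was lower, at 15.3 ± 14.1 against 143 ± 57.1 CPM (-3.33, edgeR adjusted p 2.48e-06), as was Pik3ca (-1.70); Hbegf passed but differed in sign between libraries. Between neurons and glia 9 rose and 9 fell, where 29.8% and 31.2% of genes did. Dlg4, a postsynaptic scaffold that binds ErbB4, rose by 2.53 and Sos1 by 1.15, while Ptprz1 (-4.48), the adaptor Gab1 (-3.86) and Lrig1 (-2.47) were lower in neurons.

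Not all UMIs of the members fell in named classes. Neurons that fitted no class (1343 cells) held 19.2% of the Erbb4 UMIs at 71.3 ± 27.1 CPM (SD, n = 3 libraries), above the mean of D1-like cells, and 14.8% of the Nrg3 and 1.94% of the Egfr UMIs. A further 1586 cells with no class held 11.1% of the Erbb4 and 18.4% of the Egfr UMIs, and 1 of them had 11 Erbb4 UMIs, the most of any cell.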

How the data were processed

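RNA of nucleus accumbens cells from 3 samples was read with the 3′ v2 chemistry of 10x Genomics, as the labels state. The authors deposited 1 pooled table of UMI counts, whole numbers per gene and barcode for 11625 cells; the file header gives software version 3.0.0, and mm10 and Cell Ranger 3.0 come from the submitters' processing notes. Here, a cell was used if it had 300 or more genes and no more than 20% of its UMIs from mitochondria, and the top Scrublet scores (scanpy 1.11.5) were dropped at 0.8% per 1000 cells. That left 9923 cells. The members, marker lists, pathway lists and tests were chosen with earlier results of these data known.

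Non-neuronal classes needed 3 markers with a lead of 2 (precursors 2 markers), and neurons 2 of their general markers. D1-like and D2-like cells needed 3 spiny markers and 2 of their own, Tshz1-type and glutamatergic-like cells 2, Pvalb cells 1 of their own and 3 with helper genes, and Sst-Npy cells 5 UMIs of their list. These gates were reached over several versions after cell counts, leading genes and the members' levels had been seen; the first version is reported as an alternative. The planned minimum of 10 cells per library and class was lowered to 9 after the counts were seen, because 1 class had 9.

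Counts were summed per library and class. The 39 sums entered 1 fit in edgeR 4.0.16 (quasi-likelihood, TMM, filterByExpr, robust prior, library as block, Benjamini-Hochberg over all genes tested, gate markers left out, threshold 0.05). The block follows from the design, since compared sums come from the same libraries. The SE is derived from the F statistic. The test was also run on simulated data, and the outcome is not reported here. Named genes are all members, up to 3 pathway genes a direction that passed with the same sign in 3 libraries, and the 3 genes of highest Pearson r of log2(CPM + 10) among genes with a class mean of at least 20 CPM. Some pathway genes that this rule names are not reported here. Alternatives were DESeq2 1.42.0, no low-count filter, only the classes compared, no block, the package-default prior, cells of at least 1000 UMIs, a stricter gate, no doublet removal and leaving out each library. A count of 0 allows up to 3 counts of the total; this covers counting error only.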

Additional observations from a re-analysis of the deposited data

Results flagged for a closer look

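Erbb4 reached 468.9 CPM (5 UMIs in 10663, exact Poisson 95% interval 152 to 1094 CPM, counting error only) in 5 cells that passed the gate for other interneurons (Vip, Htr3a, Calb2 and Cxcl14), a class too small for any comparison. It is listed because the level is above what a count of 0 would allow. The UMIs were in 2 cells, 4 of them in 1 cell.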

How the results depend on the processing

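The number of members called changed as follows; the fits of leave-one-out without the filter, the first version of the gates and the minimum of 10 cells were chosen after seeing the data. For D1-like over D2-like neurons (0 of 2) it was 1 with only the classes compared and 0 to 1 over the fits that left out a library. For interneurons over spiny neurons (1) leaving out a library gave 0 to 2. For glutamatergic over spiny neurons (1) it was 2 with no low-count filter and with only the classes compared, 0 under the first version of the gates, and 1 to 2 over leave-one-out. For precursors over oligodendrocytes (0) it was 1 with no filter and 0 to 1 over leave-one-out. For precursors over astrocytes (2) it was 1 with the stricter gate and under the first version of the gates, and 1 to 2 over leave-one-out. For neurons over glia (0) it was 1 with no filter and with only the classes compared, and 0 to 1 over leave-one-out. The cause was not tested, except that more or fewer members enter a fit when the filter or the classes change. Pvalb over Sst-Npy (2) and Tshz1-type over D1-like (0) kept their count wherever a value could be had. The replicate block, with the library as block, was left out as an alternative and changed the count of members in none of the 8 comparisons, for example 2 in Pvalb over Sst-Npy. Cells of at least 1000 UMIs gave a value only for D1-like over D2-like and glutamatergic over spiny neurons; the stricter gate gave none for comparisons with Tshz1-type or Pvalb cells; the minimum of 10 cells gave none for those with Sst-Npy cells. The level of each member in each class was at or above 20 CPM in 14 of 91 pairs, in 14 under the first version of the gates, in 15 with the stricter gate and in 14 to 16 over leave-one-out. Of 258 alternatives of single member fold changes 247 had the same outcome, 9 lost a call and 2 gained a call. The same outcome includes members called in neither fit, so the 247 do not measure how stable the calls were. Of 98 alternatives of levels 94 stayed within 1 SD. Counts over all genes moved more: D1-like over D2-like gave 31 (11 to 326), Tshz1-type over D1-like 87 (12 to 174), Pvalb over Sst-Npy 126 (39 to 184), interneurons over spiny 1772 (947 to 2114), glutamatergic over spiny 1224 (674 to 1731), precursors over oligodendrocytes 1954 (1024 to 2181), precursors over astrocytes 1688 (844 to 1878) and neurons over glia 5304 (3613 to 5986). Every member but Erbb4 and Egfr had only 75 to 274 UMIs over all used cells, which limits what their comparisons can show.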
